A study of Mus musculus with 7 samples.

Results

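Untreated mouse embryonic stem cells (mESCs) were compared with mESCs given 0.5 µM aphidicolin (APH) for 2.5 h, by mapping where short nascent DNA strands start. Of the 7 samples of the series, 4 belong to the comparison: untreated libraries WT 1 and WT 2, and aphidicolin libraries APH 1 and APH 2. They were chosen by their labels. The peak names inside the list of WT 1 carry the code WT II, whereas those of WT 2, APH 1 and APH 2 carry codes that name no condition. Lists were assigned by their samples, and if the untreated lists had been exchanged, the cell lines given for WT 1 and WT 2 would be exchanged too. A second deposited list per library, whose labels disagree with the lists used here, was left out. APH 1, APH 2 and WT 2 came from TetO-CDC6 mESCs, a line from a mouse model that carries a CDC6 transgene under doxycycline control, and the labels of these 3 samples name no doxycycline. WT 1 came from other mESCs labelled WT, had been submitted earlier, and was grown in a medium with a lower share of serum. Cell line and medium therefore differ inside the untreated group and cannot be told apart there, so each WT library is also given alone. Whether libraries 1 and 2 are separate cultures is not given by the labels, and the spread that p-values measure may thus be technical. The libraries hold genomic DNA, in which neither stem cell markers nor the response to the drug can be checked as expression. No read numbers came with the peak lists, so depth is unknown, and precision is limited by how many peaks were called.

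Replication starts at origins, sites where the MCM helicase is loaded ahead of S phase and fires during S phase. Many more sites are loaded than fire in an unperturbed cell, and the unused ones, called dormant origins, can fire when forks slow down. Aphidicolin inhibits the replicative B-family DNA polymerases, and a low dose slows forks and is the classic way to reveal common fragile sites. Mammalian origins lie often at CpG-rich promoters and near sequences that can fold into a G-quadruplex, a stack of guanine tetrads.

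The authors' list of origins was longer under aphidicolin, whereas the single libraries held fewer peaks. The APH condition list held 31653 origins and the WT condition list 20178, a ratio of 1.57. MACS peaks were called for each library against a control. WT 1 had 94747 peaks, WT 2 81056, APH 1 74540 and APH 2 71435. Both APH libraries thus held fewer peaks than either WT library, with a mean of 72987.5 ± 2195.57 against 87901.5 ± 9681 (SD, n = 2 each). The difference of -14914 peaks had an exact two-sided permutation p of 0.333, the smallest that 2 against 2 libraries can give, and an adjusted p of 0.889 over 8 measures. At a −log10 q-value of at least 5 the peaks numbered 25098, 13370, 21084 and 19400 in the same order, and the APH mean was 1008 peaks higher. Libraries of a condition met each other to different degrees. Of the peaks of APH 1, 77.8% met a peak of APH 2, and 83.9% the other way. Of the peaks of WT 1, 43.3% met a peak of WT 2, and 51.4% the other way. Sites present in both libraries of a condition therefore numbered 57995 under aphidicolin and 41038 without it. In lists rebuilt from such sites, the APH to WT ratio was 1.41. With WT 2 alone standing for the untreated cells it was 0.715, and with WT 1 alone 0.612, where a whole library is set against sites found in 2 libraries.

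Origins divided into 3 classes by list. Both lists held 14376 of the APH origins (45.4%) and 14475 of the WT origins (71.7%). The APH list alone held 17277 origins, and the WT list alone 5703. Most origins of the APH list alone were marked in untreated cells too. WT 2 had a MACS peak at 72.0% of them, WT 1 at 52.9%, both WT libraries at 37.8% and neither at 13.0%, which is 2241 origins. WT 2, from the line that was treated, thus marked more of them than WT 1. Of the origins of the WT list alone, APH 1 had a peak at 55.8% and APH 2 at 59.2%. The 3 classes differed in where they lay. At gene ends, meaning up to 1 kb from the first or last base of a protein-coding gene, lay 38.5% of the shared origins, 15.6% of those of the WT list alone and 6.81% of those of the APH list alone. For the 2241 APH origins without a WT peak this share was 1.61%. Bins of 1 Mb are called gene-free where no protein-coding gene has its midpoint, although a long gene may still cross them. They contained 4.98% of the shared origins, 9.28% of the WT list alone, 11.5% of the APH list alone and 13.6% of the APH origins without a WT peak. The X chromosome held 1.98%, 2.09%, 4.61% and 7.41% of these classes. Within the APH list alone, the shares differed by which WT library had a peak. For the 5904 origins with a peak in WT 2 and not in WT 1, 1.49% lay at gene ends, 17.1% in gene-free bins and 5.13% on X. For the 2596 with a peak in WT 1 and not in WT 2, the shares were 11.3%, 3.51% and 1.69%. Each condition has 1 list, so these shares have no replicate error. The classes also differed in strength, the percentile rank by −log10 q-value within a library. In APH 1 and APH 2 the median rank was 87.3 and 87.3 for shared origins and 72.2 and 69.2 for the APH list alone. For APH origins without a WT peak it was 59.9 and 54.1. In WT 1 and WT 2 it was 67.0 and 68.4 for the WT list alone. The parts of strength and of the line of WT 1 in the shares by place were not tested.

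**Figure D1:**
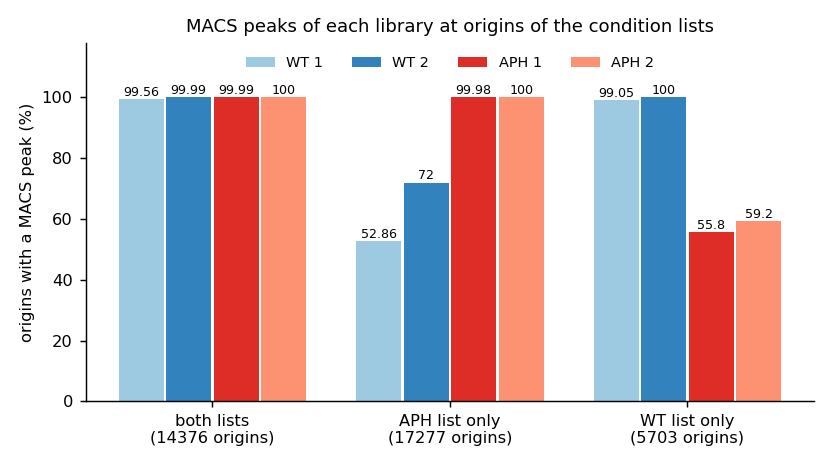
Share of origins of the condition lists (vertical axis, %) at which each of the 4 libraries has a MACS peak, for origins in both lists (counted as APH origins), in the APH list only and in the WT list only (horizontal axis). Bars stand for libraries. Of the 17277 origins in the APH list only, 72.0% have a peak in WT 2 and 52.9% in WT 1.

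At gene ends the lists were largely the same. An origin at a gene end was listed for 6963 of 21631 protein-coding genes in WT and 7209 in APH. Of all genes, 6076 (28.1%) had one in both lists, 1133 (5.24%) only in the APH list and 887 (4.1%) only in the WT list. These 1133 and 887 genes are called gained and lost below, as a description of 2 lists. Of the gained genes, 92.6% had a MACS peak at a gene end in WT 1 and 74.5% in WT 2, and 29 had none in either. Of the lost genes, 75.5% had one in APH 1 and 88.4% in APH 2, and 82 had none in either. The strongest peaks at genes held by both lists lay at Yy1, which encodes a zinc finger transcription factor, Ncoa2, a nuclear receptor coactivator, Phf10, a subunit of a chromatin remodelling complex, Vkorc1l1, Vps54, a vesicle tethering factor, and Rev1, a translesion DNA polymerase. Strength is the percentile rank of a peak by −log10 q-value within its own library, and such ranks place a peak among the peaks of 1 library and measure no change. At all 6 genes the peak ranked at 99.88 or higher in each of the 4 libraries.

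The strongest gained genes were marked in untreated cells as well. They were Vmn1r48, a vomeronasal receptor gene, Manf, a neurotrophic factor gene, Homer3, a synaptic scaffold gene, Stard3, a cholesterol transporter gene, and the neighbouring histone genes H2ac18 and H3c14, which share 1 origin. At Vmn1r48 (origin on chromosome 6, 90033279 to 90036137, mm10), the peak ranked at 98.7 in WT 1, 99.98 in WT 2, 99.9 in APH 1 and 99.99 in APH 2. At Homer3 (chromosome 8, 70282270 to 70283423), it ranked at 93.8, 98.5, 99.9 and 99.6, and at Stard3 (chromosome 11, 98380795 to 98381799) at 84.9, 96.6, 99.8 and 99.4. All 4 libraries therefore had a peak at these origins. Vomeronasal receptor and histone genes are multicopy, and reads shared between copies make their peaks uncertain. The lost genes with the strongest peaks were Ranbp6, Msl1, a dosage compensation complex gene, Pi4ka, a lipid kinase gene, Snap29, a membrane fusion gene, Ro60, an RNA-binding protein gene, and Uchl5, a deubiquitinase gene. Pi4ka with Snap29 and Ro60 with Uchl5 each share 1 origin at a pair of divergent genes. At Snap29 (chromosome 16, 17405148 to 17406258) the ranks were 98.3 in WT 1, 97.9 in WT 2, 57.8 in APH 1 and 86.3 in APH 2. At Uchl5 (chromosome 1, 143777083 to 143778276) they were 98.9, 97.2, 46.5 and 82.0. At Ranbp6 and Msl1 the peaks ranked at 98.9 or higher in both APH libraries, although the APH list held no origin within 1 kb of a gene end. The WT origins of Ranbp6 and Msl1, and the APH origin of Manf, reach only the outer rim of that 1 kb. Whether the other list holds an origin just beyond it was not tested.

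Origins at gene ends with no peak at all in the other condition were few. The strongest APH origin had no overlapping WT peak at 30 of the 1133 gained genes. The strongest WT origin had no overlapping APH peak at 91 of the 887 lost genes. Both groups are parts of the gained and lost genes ranked by the same score, so their leading genes cannot outrank those named above. The gained genes without a WT peak were led by Nyx, a retinal proteoglycan gene on X, and Rtl3, a retrotransposon-derived gene on X. Next came 1700071K01Rik, Gria2, a glutamate receptor gene, Zfp788, a zinc finger gene, and Tcl1b4. At Nyx (chromosome X, 13461562 to 13462293) the peak ranked at 89.7 in APH 1 and 89.8 in APH 2. At Gria2 (chromosome 3, 80803487 to 80804035) it ranked at 76.3 and 85.4. The lost genes without an APH peak were led by Gm52051 and the neighbours Gm52006 and Zfp36l1, the second of which encodes an mRNA decay factor. Next came Ctsr, a placental cathepsin gene, Mcee, a methylmalonyl-CoA epimerase gene, and Ap3s2, a vesicle adaptor gene. At Gm52051 (chromosome 13, 98923810 to 98924341) the peak ranked at 97.4 in WT 1 and 97.5 in WT 2. At Zfp36l1 it ranked at 91.9 and 83.0.

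Promoter sequences were compared between the lists. Windows of 300 bp, from 250 bp before to 50 bp after a start site, were taken from RefSeq on GRCm38.p6 and matched 17274 of 21631 genes with 21045 windows. A G-quadruplex motif was searched on both strands as 4 runs of at least 3 G with 1 to 7 bases between them, overlaps within a strand counted as 1 match. The sequences below show the classes, with each motif match in capitals. Phf10 (chromosome 17, 14961211 to 14961510, minus strand) stands for promoters in both lists. Homer3 (chromosome 8, 70282749 to 70283048, plus strand) and H3c14 (chromosome 3, 96246435 to 96246734, plus strand) stand for promoters in the APH list alone, with 3 matches each. Uchl5 (chromosome 1, 143777028 to 143777327, plus strand) and Snap29 (chromosome 16, 17405750 to 17406049, plus strand) stand for promoters in the WT list alone and hold 36 and 33 CpG but no match. Msl1 (chromosome 11, 98795266 to 98795565, plus strand), at the WT origin of a lost gene, holds 4 matches. Its window lies more than 1 kb inside the gene, so whether the APH list holds an origin there is not known here. The examples were picked after their matches were seen. Tcl1b4 (chromosome 12, 105202145 to 105202444, plus strand) lies in an APH origin with no WT peak.
Phf10: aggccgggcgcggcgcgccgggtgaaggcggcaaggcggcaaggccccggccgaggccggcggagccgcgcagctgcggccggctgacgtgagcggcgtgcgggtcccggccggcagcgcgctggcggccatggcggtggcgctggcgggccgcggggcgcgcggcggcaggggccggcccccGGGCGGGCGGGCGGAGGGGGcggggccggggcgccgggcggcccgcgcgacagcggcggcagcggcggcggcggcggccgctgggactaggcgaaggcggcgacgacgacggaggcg
Homer3: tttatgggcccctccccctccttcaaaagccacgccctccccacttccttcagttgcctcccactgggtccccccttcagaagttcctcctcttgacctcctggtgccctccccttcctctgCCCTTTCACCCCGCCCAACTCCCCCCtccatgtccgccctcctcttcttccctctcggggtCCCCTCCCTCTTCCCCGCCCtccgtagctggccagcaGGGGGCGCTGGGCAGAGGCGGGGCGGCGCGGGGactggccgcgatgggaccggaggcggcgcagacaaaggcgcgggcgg
H3c14: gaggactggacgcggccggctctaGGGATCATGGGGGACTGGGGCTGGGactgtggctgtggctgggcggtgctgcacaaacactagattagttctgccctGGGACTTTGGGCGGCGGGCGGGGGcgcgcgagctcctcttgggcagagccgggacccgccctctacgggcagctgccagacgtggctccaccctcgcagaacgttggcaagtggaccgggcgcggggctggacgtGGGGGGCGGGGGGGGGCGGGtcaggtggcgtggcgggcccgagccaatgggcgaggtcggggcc
Uchl5: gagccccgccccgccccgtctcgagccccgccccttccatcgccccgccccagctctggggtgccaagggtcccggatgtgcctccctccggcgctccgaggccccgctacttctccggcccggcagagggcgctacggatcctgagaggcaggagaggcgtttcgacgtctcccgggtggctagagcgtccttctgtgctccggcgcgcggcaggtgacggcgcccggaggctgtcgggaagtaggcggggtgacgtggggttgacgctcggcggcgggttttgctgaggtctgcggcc
Snap29: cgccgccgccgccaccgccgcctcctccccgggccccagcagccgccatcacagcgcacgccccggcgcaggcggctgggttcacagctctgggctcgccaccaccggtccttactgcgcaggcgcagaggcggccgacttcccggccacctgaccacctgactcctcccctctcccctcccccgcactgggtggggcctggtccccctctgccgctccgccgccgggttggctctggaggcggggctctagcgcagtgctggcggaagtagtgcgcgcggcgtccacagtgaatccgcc
Msl1: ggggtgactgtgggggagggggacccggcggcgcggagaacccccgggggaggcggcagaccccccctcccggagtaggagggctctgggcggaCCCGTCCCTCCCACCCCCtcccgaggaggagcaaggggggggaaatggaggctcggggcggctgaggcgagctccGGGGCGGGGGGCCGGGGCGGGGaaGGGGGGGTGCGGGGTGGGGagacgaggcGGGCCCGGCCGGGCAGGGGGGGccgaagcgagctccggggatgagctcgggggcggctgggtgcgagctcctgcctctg
Tcl1b4: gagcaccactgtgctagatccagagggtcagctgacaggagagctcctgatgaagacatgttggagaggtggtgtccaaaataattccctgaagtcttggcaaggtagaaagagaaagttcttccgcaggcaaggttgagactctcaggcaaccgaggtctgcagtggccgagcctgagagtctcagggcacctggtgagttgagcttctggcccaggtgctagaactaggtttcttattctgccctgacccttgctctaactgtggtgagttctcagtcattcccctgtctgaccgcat

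Windows in the APH list alone held a motif more often than windows in the WT list alone. A match was present in 22.3% of all windows, in 43.4% of the 4919 windows in both lists, in 45.0% of the 892 in the APH list alone, in 24.1% of the 668 in the WT list alone and in 13.7% of the 14566 in neither. Median GC was 68.3%, 64.3%, 62% and 52.3% in these last 4 classes, and 56.7% over all windows. Median observed over expected CpG was 0.86, 0.73, 0.81 and 0.36, so windows of the WT list alone had the higher CpG ratio of the classes held by 1 list. Among windows of 60% to 70% GC, 39.1% of those in both lists, 49.0% in the APH list alone, 29.3% in the WT list alone and 29.7% in neither held a match. The pattern depended on the untreated library. Among the 20000 strongest peaks, windows held by APH 1 and not by WT 2 had a match in 40.9%, and windows held by WT 2 and not by APH 1 in 22.5%. For APH 2 and WT 2 the shares were 36.5% and 21.9%. Set against WT 1, the order turned over windows of all GC: 25.7% of the windows held by APH 1 and not by WT 1 had a match, against 31.1% the other way, and 21.4% against 31.6% for APH 2. The untreated libraries differed from each other by as much, with 35.6% for windows of WT 1 not held by WT 2 and 17.0% the other way. These windows differed in GC. Within 60% to 70% GC, APH 1 and WT 1 were level at 35.7% and 35.6%, and the shares for APH 2 and WT 1 were 29.9% and 36.5%. Against WT 2 they were 44.3% and 25.8% for APH 1 and 41.1% and 27.7% for APH 2. The difference between the lists is a description, and no match says only that these letters are not in the window.

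**Figure D2:**
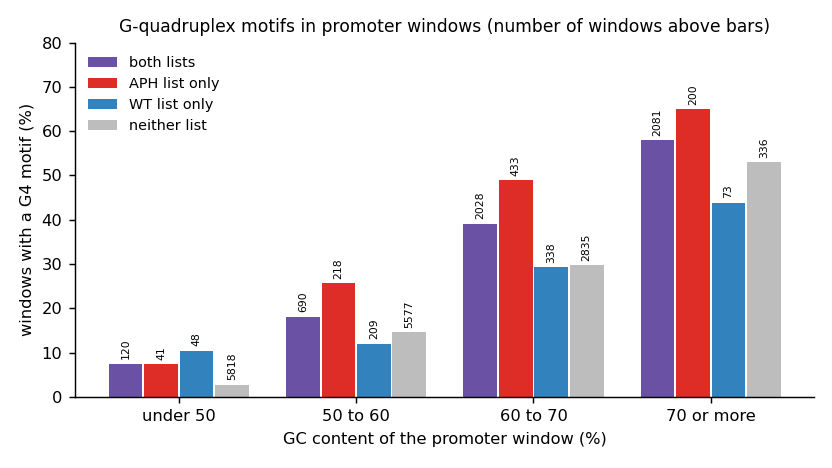
Share of promoter windows of 300 bp with a G-quadruplex motif (vertical axis, %), by GC content of the window (horizontal axis, %) and by the list that holds an origin there (bars), with the number of windows above each bar. At 60% to 70% GC the APH list alone reaches 49.0% and the WT list alone 29.3%.

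In the genomic place of their strongest peaks, both APH libraries lay between the untreated ones. Among the 20000 strongest peaks of each library, the share at gene ends was 41.3% in WT 1, 26.5% in WT 2, 29.2% in APH 1 and 34.3% in APH 2. The share in gene bodies was 62.5%, 49.0%, 53.2% and 56.7%, and the share in gene-free bins 3.30%, 8.90%, 6.94% and 5.64%. X held 2.11%, 3.20%, 2.97% and 2.77%. The median distance between neighbouring peaks was 57.3 kb, 80.8 kb, 74.5 kb and 68.7 kb. In these 5 measures the WT libraries spanned the APH libraries (exact two-sided permutation p = 1 each, adjusted p = 1 over 8 measures). Against WT 2, from the treated line, both APH libraries had more strong peaks at gene ends, by 5.20 percentage points on average, fewer in gene-free bins, and a median distance that fell by 9.23 kb. Against WT 1 each of these differences had the opposite sign. The order at gene ends depended on how strong peaks were chosen. Among peaks with a −log10 q-value of at least 5, the share there was 36.3% in WT 1, 32.3% in WT 2, 28.4% in APH 1 and 34.9% in APH 2, so APH 1 was then below both WT libraries.

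**Figure D3:**
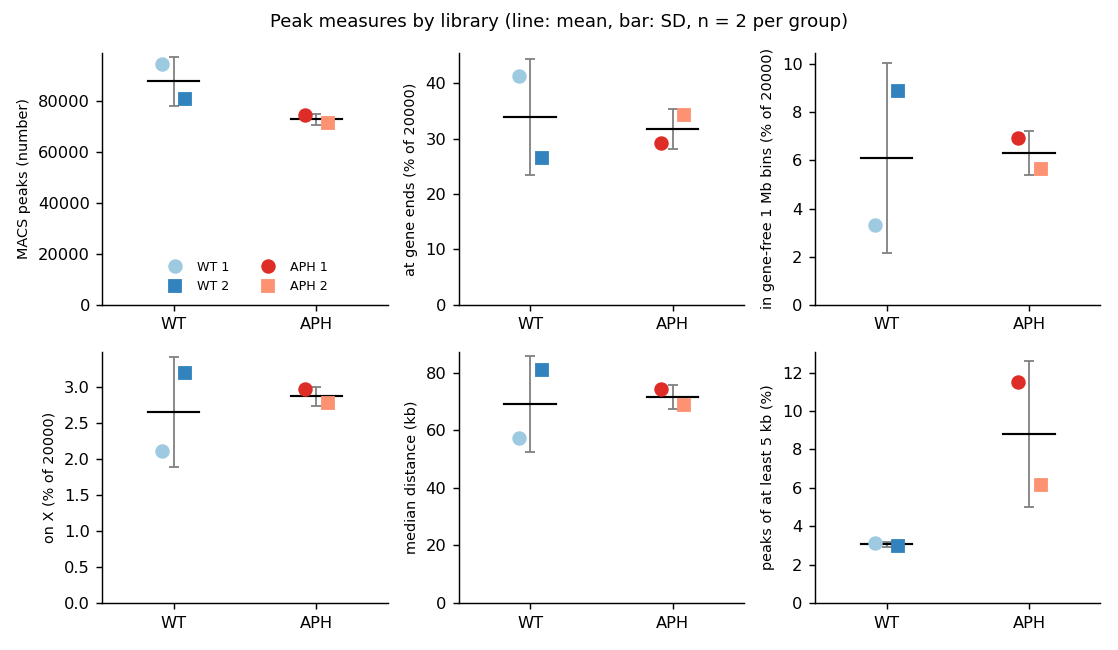
Peak measures of the 4 libraries (points), with the mean (line) and SD (bar) of each condition, n = 2. The 6 panels show the number of MACS peaks, the shares of the 20000 strongest peaks at gene ends, in gene-free 1 Mb bins and on X (%), their median distance (kb), and the share of all peaks of at least 5 kb (%). The APH libraries lie between the WT libraries in 4 panels and outside them in the number of peaks and the share of wide peaks.

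The strongest peaks of the APH libraries were mostly the same sites. Of the 20000 strongest, APH 1 and APH 2 shared 79.7% (mean of both directions), WT 2 shared 61.8% with APH 1 and 63.3% with APH 2, WT 1 shared 51.4% and 55.9% with them, and the WT libraries shared 46.4% with each other. WT 2 was thus nearer to both APH libraries than to WT 1. The mean overlap within conditions was 63.1% and between conditions 58.1%, a difference of 5.00 points (p = 0.333 by an exact one-sided permutation of the 3 pairings, which can give no smaller p). It was -13.2 points without APH 1 and -10.2 points without APH 2, so the sign rested on the APH pair. A strong peak of treated cells was rarely without any peak in WT 2. Of the 20000 strongest of APH 1, 90.97% met a WT 2 peak of any rank, as did 92.7% of those of APH 2, against 82.6% and 87.2% for WT 1.

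In both treated libraries a larger share of peaks was at least 5 kb wide. Peaks of at least 5 kb, a limit chosen after the data were seen, numbered 2968 (3.13% of peaks) in WT 1, 2410 (2.97%) in WT 2, 8574 (11.5%) in APH 1 and 4379 (6.13%) in APH 2. Both APH libraries were above both WT libraries, and the APH mean share was 8.82% ± 3.80 against 3.05% ± 0.113 (SD, n = 2 each; exact two-sided permutation p = 0.333, the smallest possible, adjusted p = 0.889 over 8 measures). At higher limits, also set after the data were seen, WT 1 was no longer below APH 2. Peaks of at least 8 kb were 0.914% of the peaks in WT 1, 0.300% in WT 2, 1.69% in APH 1 and 0.805% in APH 2, and those of at least 10 kb 0.467%, 0.0925%, 0.593% and 0.227%. Away from gene ends, peaks of at least 10 kb were 0.110%, 0.0790%, 0.537% and 0.151% of all peaks. The mean width of all peaks was 1603 bp, 1665 bp, 2098 bp and 1812 bp, again with both APH libraries above. The share varied more between the APH libraries than between the WT libraries. Among the 20000 strongest peaks, the share of at least 5 kb was 7.96% in WT 1, 7.61% in WT 2, 12.8% in APH 1 and 10.7% in APH 2. Mean width did not separate the conditions among these strongest peaks, with 2421 bp, 2303 bp, 2383 bp and 2368 bp.

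Wide peaks of the TetO-CDC6 line lay mostly away from gene ends. In WT 1, 58.2% of the wide peaks lay at gene ends, in WT 2 12.2%, in APH 1 4.96% and in APH 2 12.7%. Those away from gene ends numbered 1242, 2115, 8149 and 3821 in WT 1, WT 2, APH 1 and APH 2. Their median width was 6236 bp, 5768 bp, 6315 bp and 6024 bp. In APH 1 the number of such peaks per step of 200 bp fell to 511 at 5400 bp and rose to 788 at 5800 bp, while WT 2 had 221 and 167 at these steps and APH 2 360 and 339. At the lower limit of 3 kb, peaks away from gene ends numbered 5338, 9119, 13882 and 9353, so WT 2 and APH 2 were then close. X held 7.22% of the wide peaks away from gene ends in APH 1, 6.49% in APH 2, 5.39% in WT 2 and 0.161% (2 peaks) in WT 1. The sites were not silent in the untreated cells of the same line. Of the 8149 wide sites of APH 1 away from gene ends, 97.7% had a peak in WT 2, which covered 54.0% of a site on average and was itself at least 5 kb wide at 20.8%. In APH 2 a peak was present at 98.6%, covered 67.1% and was wide at 40.2%. In WT 1 a peak was present at 59.5% and covered 12.6%. The sites were read from the wide peaks of APH 1, so full cover in that library is by construction, and lower cover in the others is favoured by it. Starting from the 2115 wide sites of WT 2, APH 1 covered 82.4% and was wide at 80.6%, and APH 2 covered 70.9% and was wide at 51.4%. Read depth is unknown, and its part in peak width was not tested.

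**Figure D4:**
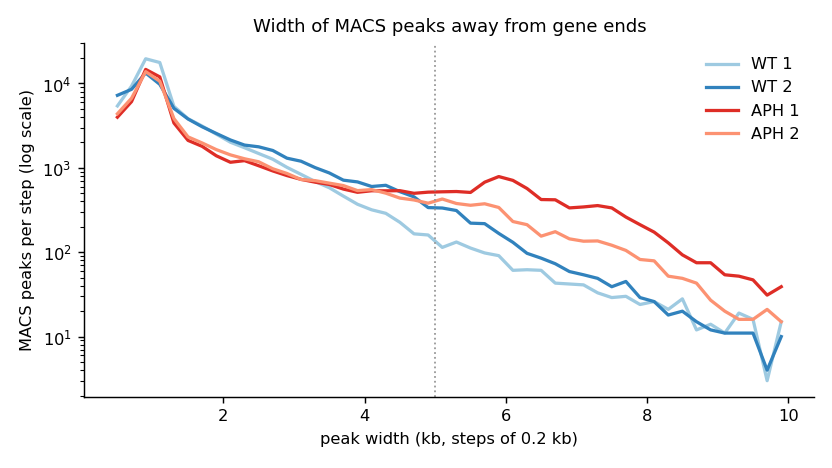
Number of MACS peaks away from gene ends per step of 0.2 kb (vertical axis, log scale) by peak width (horizontal axis, kb) in the 4 libraries (lines); the dotted line marks 5 kb. APH 1 has a shoulder with 788 peaks in the step from 5800 bp, where WT 2 has 167.

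Examples of wide sites in both treated libraries lay in an interferon gene cluster and in regions without a protein-coding gene. The widest was in the type I interferon cluster on chromosome 4 (88767194 to 88807307, with Ifnz and 11 predicted genes), where 1 peak spanned 40114 bp in APH 1 and 37530 bp in APH 2, against widest peaks of 34910 bp (WT 1) and 12410 bp (WT 2). Its genes are near-identical copies, so the reads there are uncertain. At Hsf3, a heat shock factor gene on X (96392745 to 96411234), 1 peak spanned 18490 bp in APH 1 and 17455 bp in APH 2. The untreated libraries had 3 peaks each in that interval, which covered 14.6% in WT 1 and 55.9% in WT 2. Sites at the transcription factor genes Zbtb7a and Nfic were wide in untreated cells too. At Nfic the widest peak measured 25651, 11449, 15751 and 25910 bp in WT 1, WT 2, APH 1 and APH 2, so the conditions overlapped.

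Along the chromosomes, no bin or gene passed the test when both WT libraries were used. Peaks were assigned by midpoint to 1 Mb bins and to protein-coding genes no shorter than 50 kb. Their numbers were scaled to the mean library total and compared as log2(number + 1) with limma. Of 2524 bins, 0 (0%) had an adjusted p under 0.05, and 17 (0.674%) had an unadjusted p under 0.05. Of 1517 genes, 0 (0%) had an adjusted p under 0.05, and 35 (2.31%) an unadjusted p under 0.05. Of these 35, 8 were higher under aphidicolin and 27 lower. Scaled to the median gene instead, the median difference of all genes moved from -0.004 to 0.28, and of 66 genes at an unadjusted p under 0.05, 59 were higher and 7 lower, so the balance of directions depended on the scaling. Both APH libraries were higher than both WT libraries in 328 bins (13%) and 200 genes (13.2%), and lower in 343 bins (13.6%) and 242 genes (16%). The calls rested on the untreated library. Without WT 1, limma called 0 of 2524 bins and 88 of 1280 genes (6.88%). Without WT 2 it called 905 of 2519 bins (35.9%) and 324 of 1614 genes (20.1%). With 1 WT library left, its spread is taken to equal that of the APH group.

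The bins with the smallest p on the higher side lay together near the start of chromosome 14. Between 4 and 8 Mb there were 124 peaks in WT 1, 169 in WT 2, 291 in APH 1 and 275 in APH 2. They covered 174 kb, 408 kb, 1244 kb and 760 kb. In the bin from 4 to 5 Mb there were 25, 40, 80 and 75 peaks, a log2 difference of 1.52 ± 0.349 (SE, n = 2 per group), and in that from 6 to 7 Mb 38, 59, 108 and 99 peaks, a log2 difference of 1.37 ± 0.372. Both APH libraries were above both WT libraries in each of these bins. The limma adjusted p was 0.999, and the differences against WT 2 alone were 1.09 and 0.95. The neighbouring bin from 8 to 9 Mb held 33, 34, 25 and 31 peaks. The 65 protein-coding genes of the block are mostly predicted genes of multicopy families (Gm3127, Gm26650, Gm31035 and others), so reads can be split between near-identical copies, and the values are uncertain. At a −log10 q-value of at least 5, the log2 difference in the bin from 7 to 8 Mb was -0.01 in place of 0.98. On X, the bin from 21 to 22 Mb held 10, 21, 35 and 30 peaks. On the lower side, the bin from 104 to 105 Mb of chromosome 13 held 42, 40, 20 and 18 peaks, a log2 difference of -0.82 ± 0.266 (limma adjusted p = 0.999).

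Among long genes, the values furthest apart rested on few peaks. Mid1, which encodes a microtubule-associated ubiquitin ligase on X (169685199 to 169990798), held 2 and 3 peaks in WT 1 and WT 2, and 7 and 8 in APH 1 and APH 2. Its log2 difference was 1.5 ± 0.485 (SE, n = 2 per group). The gene reaches the pseudoautosomal end of X, where copies on X and Y share sequence, so its reads are uncertain. Erg (chromosome 16, 95359169 to 95586600), which encodes an ETS transcription factor, held 6, 4, 9 and 8 peaks. Lmx1a, a homeobox gene, held 6, 4, 7 and 9, and Caln1, a calcium-binding protein gene, 6, 5, 8 and 9. Gm26650, Gm31035, Gm7133 and Gm21154 are predicted genes, and the first pair lies in the block of chromosome 14 described above. Il1rapl2, a gene of a neuronal protein on X, held 6, 10, 21 and 10 peaks, so WT 2 and APH 2 were apart only after scaling. All of these genes had a limma adjusted p of 1.0, and none passed the test.

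On the lower side, the 10 genes with the smallest p were of mixed function. Wrn, the helicase gene of Werner syndrome, which acts at stalled forks (chromosome 8, 33234372 to 33385543), held 9 peaks in each WT library, 3 in APH 1 and 2 in APH 2. Its log2 difference was -1.32 ± 0.422. Fancc, of the Fanconi anaemia core complex (chromosome 13, 63301334 to 63497292), held 11, 7, 2 and 3 peaks, with a log2 difference of -1.29 ± 0.445. Macf1, which encodes a giant protein that links actin and microtubules (chromosome 4, 123349633 to 123687802), held 22, 18, 7 and 8 peaks, with a log2 difference of -1.06 ± 0.329. Tcf12, a helix-loop-helix transcription factor gene, held 9, 14, 2 and 4. Ehbp1, an endocytic adaptor gene, held 10, 9, 3 and 3. Zfp385b held 13, 11, 5 and 4, Pdss2, of ubiquinone synthesis, 14, 8, 3 and 4, Ncam2, a neural adhesion gene, 10, 9, 3 and 4, Arhgap32 13, 11, 5 and 5, and Klf12 14, 9, 5 and 4. In each of these 10 genes both APH libraries were below both WT libraries, and each had a limma adjusted p of 1.0. The genes were picked for the smallest p out of 1517, so the separation is a description.

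**Figure D5:**
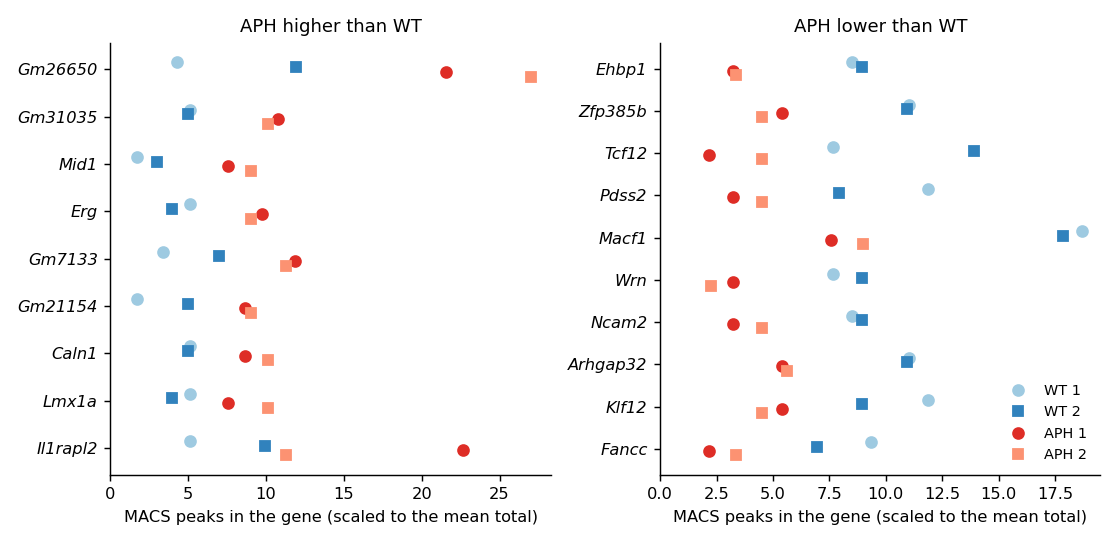
Number of MACS peaks in the gene body, scaled to the mean total of the libraries (horizontal axis), for long genes with the smallest p on each side (vertical axis) in the 4 libraries (points). In the right panel both APH libraries lie below both WT libraries at every gene, and none of the genes shown passed the test.

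Common fragile site orthologues, the long genes whose human counterparts break under low doses of aphidicolin, were all measured, and none passed the test. Of the 25, 0 passed, and their median log2 difference was 0.08 against -0.004 over all 1517 genes. Both APH libraries were higher than both WT libraries at 2 of the 25, against 13.2% of all genes tested, with 28, 24, 25 and 22 peaks before scaling at Csmd1, and lower at 1, Exoc4, with 22, 20, 16 and 11, against 16% of all. Their gene bodies held 682 peaks in WT 1, 783 in WT 2, 689 in APH 1 and 599 in APH 2. Fhit, the gene of the most fragile human site, held 17, 26, 22 and 19 peaks, and its log2 difference was 0.21 ± 0.388 (SE, n = 2 per group, limma adjusted p = 1.0). Wwox, a tumour suppressor gene of the second such site, held 65 peaks in WT 1, 17 in WT 2, 25 in APH 1 and 23 in APH 2. Chromosome 8, where Wwox lies, took up 8.26% of the peaks in WT 1, 4.86% in WT 2, 5.11% in APH 1 and 5.23% in APH 2. Dmd on X held 14, 32, 35 and 25 peaks, and Il1rapl1 on X 6, 16, 16 and 13. At these 3 genes the library apart was WT 1. At gene ends, 10 of the 25 (40%) had an origin in both lists, Dab1 alone (4%) gained one and none lost one. Over all protein-coding genes 28.1% had one in both lists, 5.24% gained and 4.1% lost one.

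Of the replication genes with a gene-end origin in the WT list, the APH list held one at 5 of 6 licensing genes, 7 of 9 firing genes, 3 of 5 polymerase and clamp genes, 10 of 14 checkpoint and fork protection genes and 6 of 6 translesion genes. Over all protein-coding genes this was 6076 of 6963. Among 17 licensing genes, which load the helicase, 5 had an origin in both lists, 0 gained one and Orc3, a subunit of the origin recognition complex, lost one. Orc3 had a MACS peak at a gene end in both WT libraries and in neither APH library. Among 19 firing genes 7 had one in both lists. Ticrr, which encodes the initiation factor treslin, gained one, and Mcm10 and Gins1, of the replisome, lost one. Mcm10 had no peak at a gene end in either APH library, whereas Gins1 had one in all 4. Among 18 genes of polymerases and their clamp 3 had one in both lists, Rfc4, of the clamp loader, gained one, and Pole and Pola1, catalytic subunits of polymerases ε and α, lost one. Among 27 genes of the ATR checkpoint and fork protection 10 had one in both lists, 0 gained one, and Zranb3, Hltf, Mms22l and Brca2 lost one. Zranb3 and Hltf are fork remodellers, and Mms22l and Brca2 act in recombination at damaged forks. All of these except Brca2, which lacked a peak in APH 1, had a MACS peak at a gene end in all 4 libraries. Of 9 genes of translesion synthesis and repriming, 6 had an origin in both lists and none gained or lost one. Over all protein-coding genes 5.24% gained and 4.1% lost one.

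Developmental and multicopy genes showed small shifts between the lists in both directions. Over all protein-coding genes 28.1% had an origin at a gene end in both lists, 5.24% gained and 4.1% lost one. Of 23 pluripotency genes 9 had an origin at a gene end in both lists, Fgf4, a growth factor gene, gained one, and Pou5f1, the gene of the stem cell factor OCT4, and Tbx3 lost one. Of 30 lineage regulators 15 had one in both lists, Gata2 gained one, and Foxa2 and Pax7 lost one. Of 39 Hox genes, the body-plan homeobox genes, 16 had one in both lists, Hoxd11 gained one, and Hoxd3, Hoxa7, Hoxb9 and Hoxb8 lost one. At each of these 11 genes all 4 libraries had a MACS peak at a gene end. As shares in both lists, gained and lost, pluripotency genes had 39.1%, 4.35% and 8.70%. Lineage regulators had 50%, 3.33% and 6.67%, and Hox genes 41.0%, 2.56% and 10.3%. Ribosomal protein genes gained 5 (6.25%) and lost 7 (8.75%) of 80, and canonical histone genes gained 5 (7.46%) and lost 2 (2.99%) of 67. The histone genes with a MACS peak at a gene end numbered 62 in WT 1, 39 in WT 2, 27 in APH 1 and 36 in APH 2, which is 92.5%, 58.2%, 40.3% and 53.7% of them. Both APH counts were thus below both WT counts, whereas over all protein-coding genes the shares of 66.4%, 48.1%, 48.3% and 52.5% overlapped between conditions. Histone genes with 1 of the 20000 strongest peaks at a gene end numbered 16, 21, 16 and 19, which also overlap. Ribosomal protein genes with any MACS peak at a gene end numbered 65, 44, 36 and 46, which overlap between conditions. Of 1110 olfactory receptor genes, 6 (0.541%) had an origin at a gene end in both lists, 7 (0.631%) gained and 11 (0.991%) lost one. Each of these shares was below that over all protein-coding genes. Ribosomal, histone and olfactory receptor genes have near-identical copies or pseudogenes, so their peaks are uncertain.

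By chromosome, X stood apart between the lists, and less so between the libraries. X held 405 WT and 1081 APH origins, a ratio of 2.67, and the ratio on autosomes ran from 1.27 on chromosome 19 to 1.70 on chromosome 12. Of all MACS peaks, X held 1.75% in WT 1, 3.30% in WT 2, 4.15% in APH 1 and 3.55% in APH 2. Both APH libraries were thus above both WT libraries, by 1.17 times against WT 2 and 2.20 times against WT 1. Among the 20000 strongest peaks WT 2, with 3.20%, was above both APH libraries. The share of all peaks was higher in both APH libraries than in both WT libraries on 4 of 20 chromosomes (20%), which were 4, 7, 15 and X, and lower on 4 (20%), which were 9, 10, 13 and 18. On the autosomes among these the mean APH share was 0.945 to 1.06 times the mean WT share.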

How the data were processed

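Short nascent strands of 4 libraries (WT 1, WT 2, APH 1, APH 2) were compared. The submitters' processing notes name MACS2 2.0.10, BWA 0.7.10, bedtools 2.23.0, Picard 1.107, SAMtools 0.1.19 and FastQC. Their settings were not stated there. The chromosome ends in the lists fit mm10 (GRCm38). The deposited MACS peak lists give the authors' peak score, a fold ratio against 1 control common to the libraries, and −log10 of a p-value and q-value. They end at a q-value of 0.1 and a width of 400 bp. The deposited condition lists hold 2 scores per origin of unstated meaning, which were not used, and the way libraries were merged by the authors is not stated. Scores and ratios describe or rank peaks within 1 list. At least 99.4% of each condition list met the MACS peaks of both libraries of its label. Depth is unknown.

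Autosomes and X were used, and overlap meant at least 1 bp. Gene positions and promoter sequences came from RefSeq tables of GRCm38.p6. The gene table gives no strand, so both ends of a gene were used in place of start sites, and promoter windows matched 79.9% of genes. Single values were tested with the exact permutation test over the 6 assignments of 4 libraries to groups of 2, with Benjamini-Hochberg adjustment over 8 measures. Peak numbers in bins with a mean of at least 10 peaks and in genes with at least 5 were tested with limma 3.58.1 (R 4.3.3). The settings were lmFit, eBayes with trend, a pseudocount of 1 and a Benjamini-Hochberg threshold of 0.05. The fit was also tried on simulated counts with Poisson spread only. Those counts lacked the further spread between libraries seen here, so the trial does not show how the test performs on these data. Named long genes and bins are the 10 with the smallest p on each side. Some items that these rules name are not reported here. Named gene ends are the 6 with the strongest peaks in each class. The rule for developmental and replication genes names those that gained or lost an origin. Other examples were picked after their values were seen. The compared samples, gene lists and rules were chosen with earlier results of these data known. Alternatives were other thresholds, windows, scalings, rebuilt or equally long lists, and each library left out. The replicate numbers do not pair the samples, since the labels give no shared origin of equal numbers.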

Additional observations from a re-analysis of the deposited data

How the results depend on the processing

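With 2 libraries per condition and 1 of another line, the untreated library used decided the sign of 5 of the 8 library measures. Leaving out each library in turn, the APH minus WT difference ran from -21759.5 to -8068.5 for the number of peaks, from -0.323 to 0.762 points for X, from -9.59 to 5.20 points for gene ends, from -7.52 to 6.02 points for gene bodies, from -2.61 to 3.0 points for gene-free bins, from -9.23 to 14.3 kb for the distance, from 178 to 465 bp for mean width and from 3.08 to 8.45 points for wide peaks. The overlap within minus between conditions ran from -13.2 to 26.1 points. In rebuilt lists the ratio of origins ran from 0.612 to 1.82. The share of APH origins in the WT list ran from 42.5% to 76.4%. That of WT origins in the APH list ran from 38.6% to 76.4%. Gained genes ran from 312 to 1812 and lost genes from 948 to 4637. In each of these rebuilt cases a whole library stood against sites found in 2 libraries. These ranges follow in part from that unequal make-up, so they do not show the effect of a single library. The limma calls ran from 0 to 905 bins and from 0 to 324 genes. Other settings moved fewer values. With all MACS peaks the gene end difference was 0.441 points, and at a −log10 q of at least 5 the difference in peak number was 1008. Lists rebuilt from all MACS peaks gave a ratio of 1.41, 51.1% of APH origins with a WT origin and 1586 lost genes, and rebuilt at a −log10 q of at least 5 a ratio of 1.94, 46.5% of APH and 88.7% of WT origins shared. Lists of equal length shared 58.3% of APH and 58.7% of WT origins and gave 752 gained genes. Windows of 5 kb gave 1855 gained genes. At a −log10 q of at least 5 the log2 difference of the chromosome 14 bin from 7 to 8 Mb was -0.012. Where no cause follows from how a list was made, the cause was not tested. With the replicate number as a block limma called 0 bins and 0 genes, with 12 and 18 at an unadjusted p under 0.05, so the block changed no call, and the deviations of equal numbers correlated at -0.52 over bins and -0.31 over genes. Crossing the numbers, chosen after seeing the data, gave 4 bins and 0 genes. The width measures and their other limits were also chosen after seeing the data, and the difference in the share of wide peaks was 6.58 points at 3 kb, 0.641 at 8 kb and 0.130 at 10 kb. Depth cannot be weighed, since no read numbers are known.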
